A study of Mus musculus with 24 samples.

Results

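The endothelin system was followed through its 7 genes in whole lung and retina of newborn mice: the ligand genes Edn1, Edn2 and Edn3, the receptor genes Ednra and Ednrb, and the genes of the converting enzymes, Ece1 and Ece2. They were picked by symbol from the 36887 genes listed in either tissue's table. All 7 were listed in both tissues, 7 were tested in the retina and 6 in the lung, where Edn2 fell below the filter on low counts. RNA was sequenced from 24 samples, each from its own mouse, in 4 groups of 3 mice per tissue. All mice were C57/B6. GSDMD-KO mice and their wild type (WT) littermates were bred from heterozygotes. The knockouts, which carry a 38 bp deletion in Gsdmd in every cell, and the WT mice were kept in room air (RA) or in hyperoxia (O2). GSDMD is the pore-forming protein of pyroptosis, an inflammatory form of cell death. For the lung, pups breathed 85% oxygen, or 21% in room air, between postnatal days 1 and 14, and lungs were taken on day 15. For the retina, pups breathed 75% oxygen between postnatal days 7 and 12 and were then returned to room air, or stayed in room air throughout, and retinas were taken on day 18. The retinas of the O2 groups were therefore taken after days in room air, and the lungs a day after the end of the exposure.

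Endothelins are short vasoactive peptides. Each is cut from a long precursor, first by furin-type proteases to big endothelin and then by an endothelin-converting enzyme to the active form. The A receptor, on smooth muscle cells and pericytes, raises calcium through Gq proteins and constricts vessels. The B receptor binds the 3 peptides about equally well, clears endothelin from the circulation and, on endothelium, releases nitric oxide and prostacyclin. In the mouse lung Ednrb is a known marker of aerocytes, the large capillary cells of gas exchange. In the retina Edn2 is known as a gene that stressed photoreceptors switch on, while Ednrb is carried by astrocytes and Mueller glia.

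The stretch that encodes the mature peptide is shown for the 3 ligands because the rest of this account turns on which of these related genes each tissue transcribed. Each stretch is 63 bases on the plus strand of GRCm38 and lies in exon 2, at chr13:42303649-42303711 for Edn1, chr4:120161951-120162013 for Edn2 and chr2:174761749-174761811 for Edn3. Capitals mark the 45 bases that all 3 share.
Edn1: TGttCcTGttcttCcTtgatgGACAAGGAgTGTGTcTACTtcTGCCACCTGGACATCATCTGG
Edn2: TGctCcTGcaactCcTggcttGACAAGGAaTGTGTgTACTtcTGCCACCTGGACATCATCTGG
Edn3: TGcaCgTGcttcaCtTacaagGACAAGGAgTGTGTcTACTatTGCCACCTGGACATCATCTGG
Edn1 and Edn2 had 84.1% of these bases in common and encoded the same residue at 18 of 21 positions. Edn3 matched Edn1 at 15 of 21 residues and Edn2 at 15 of 21. The differences lay mostly in the first part of the peptide, and the last bases were the same in all 3.

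Levels are given as CPM, a gene's counts scaled by the total of its library. A gene passed a test at an adjusted p under 0.1 with p under 0.05, by the quasi-likelihood F-test of edgeR with Benjamini-Hochberg adjustment over all genes tested in the tissue. The study's own rule adds a fold change of at least 2, which passing here does not need. Whether groups of 3 overlap is given as a description, because the share of all genes without overlap was not counted. Lung Edn1, Edn3 and Ednra, and Edn1 in the GSDMD-KO retina, passed with a fold change below 2. Library totals ran from 28763700 to 29604300 counts in the lung and from 24863300 to 29093000 in the retina. In the lung Gsdmd stood at 32.1 to 43.2 CPM in WT mice and at 11.4 to 25.2 CPM in GSDMD-KO mice, so the small deletion left a transcript that could be counted. In the retina the library labelled WT-RA replicate 2 had 0.3746 CPM of Gsdmd, below every GSDMD-KO retina, and the library labelled KO-O2 replicate 3 had 3.07 CPM, within the 2.34 to 5.95 CPM of the other WT retinas. Lens genes summed to 15035 CPM in the library labelled WT-RA replicate 2, to 47466 CPM in WT-RA replicate 3 and to 20339 CPM in KO-RA replicate 3, against 278 CPM or less in the other retinas. The retina tests were repeated without the 3 lens-rich libraries, and without each single library. By their Y-linked genes 3 KO-O2 lungs were male, as were 2 from KO-RA mice, 1 from WT-O2 mice and 0 from WT-RA mice. In the lung, sex and genotype were therefore partly mixed. Among the retinas they marked 3 in each room air group and 1 in each hyperoxia group, so sex and exposure were partly mixed there. Tissue markers fitted the labels: the lung epithelial list summed to 19569 CPM or more in every lung, and the photoreceptor list to 54096 CPM or more in every retina.

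In hyperoxic lungs there was less transcript of the B receptor and of Edn3, and more of Edn1 and the A receptor. In WT lungs Ednrb fell 4.01-fold and Edn3 fell 1.83-fold, while Edn1 rose 1.82-fold and Ednra rose 1.18-fold. These were 4 of the 6 members tested, against 49.2% of all 16819 genes tested, so the number of members that moved was near the background. By direction, 24.5% of all genes passed upward and 24.7% downward, and 11.6% of all genes passed with a fold change of at least 2, as Ednrb did. In GSDMD-KO lungs 3 of 6 members passed, Ednrb, Edn3 and Ednra, against 46.7% of all genes (23.3% upward, 23.4% downward, and 10.6% with a fold change of at least 2).

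Edn1, the ligand that endothelium and airway epithelium release, was measured at 30.04, 31.4 and 32.6 CPM in the WT-RA lungs and at 50.4, 57.0 and 62.9 CPM in the WT-O2 lungs. Every WT-O2 lung lay above every WT-RA lung. The log2 fold change was 0.86 ± 0.23 (SE, adjusted p = 0.0106, 95% interval 0.36 to 1.37). In GSDMD-KO lungs Edn1 was spread wider, at 25.9, 43.1 and 48.3 CPM in KO-RA and 55.9, 58.0 and 36.8 CPM in KO-O2. Here the groups overlapped, because KO-O2 replicate 3 lay below 2 of the KO-RA lungs. The log2 fold change of 0.41 ± 0.23 did not pass (adjusted p = 0.175). Without KO-O2 replicate 3 it was 0.61 (adjusted p = 0.0311), and without KO-RA replicate 3 it was 0.58 (adjusted p = 0.0959), so either lung decided whether Edn1 passed in the knockout. The difference between the genotypes' responses was -0.45 on the log2 scale (95% interval -1.16 to 0.25, adjusted p = 0.875) and did not pass.

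Edn3, known for its part in neural crest and melanocyte development, moved the other way. It stood at 29.8, 29.6 and 34.0 CPM in WT-RA lungs and at 17.8, 16.5 and 16.4 CPM in WT-O2 lungs, with no overlap. The log2 fold change was -0.87 ± 0.10 (adjusted p = 1.2e-05). KO-RA lungs had 29.3, 32.7 and 36.0 CPM and KO-O2 lungs had 18.5, 18.7 and 23.0 CPM, again apart, with a log2 fold change of -0.66 ± 0.10. The 3 KO-O2 lungs all lay above the 3 WT-O2 lungs, a log2 difference of 0.27 (95% interval 0.05 to 0.49, adjusted p = 0.74 by edgeR) that did not pass. Edn2 was close to absent, with 0 to 6 counts in a lung library, and was not tested.

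**Figure D1:**
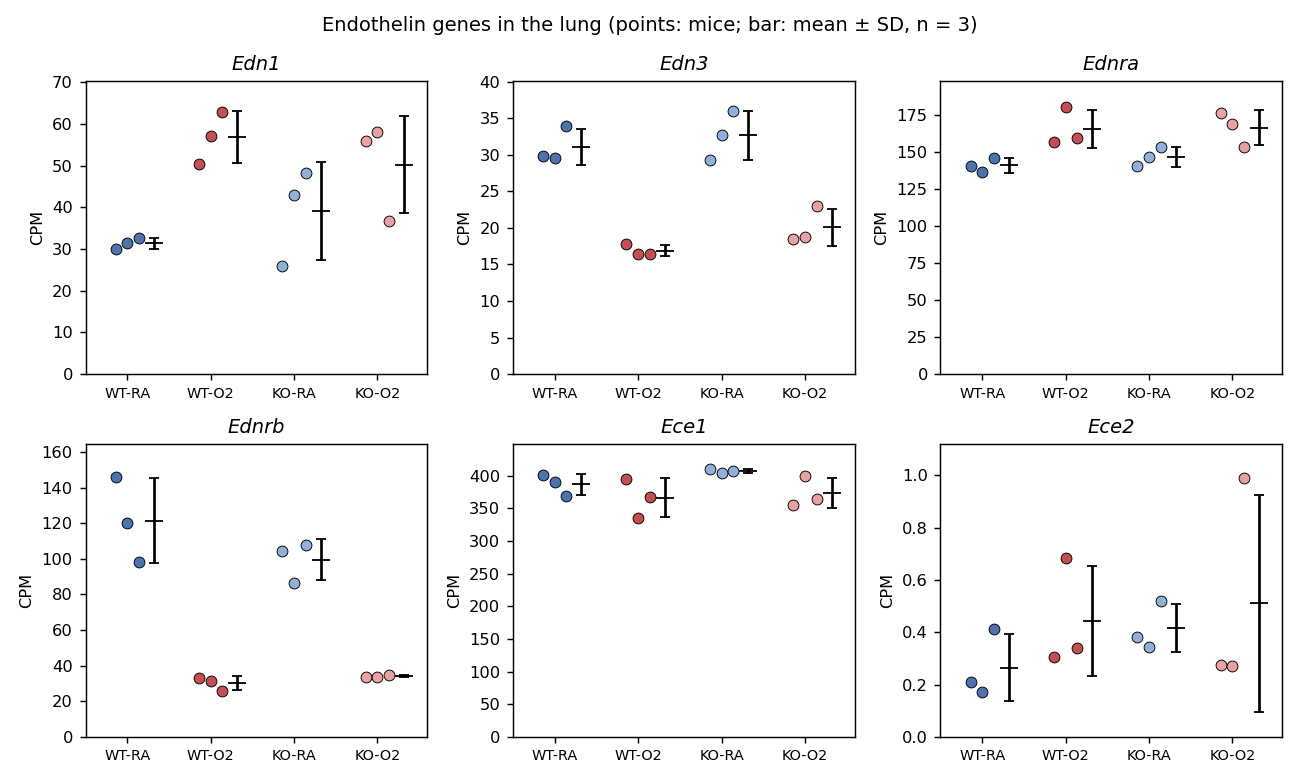
CPM of the 6 tested members in each of the 12 lungs (y axes from 0; points are mice, the bar is the mean with its SD over 3 mice). Ednrb fell from 97.9 to 146 CPM in WT-RA to 25.7 to 33.3 CPM in WT-O2, and Edn3 and Edn1 were apart between WT-RA and WT-O2 in opposite directions. Ece1 overlapped in WT, while every KO-O2 lung lay slightly below every KO-RA lung.

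Ednrb changed most. WT-RA lungs had 146, 120 and 97.9 CPM, and WT-O2 lungs had 33.3, 31.3 and 25.7 CPM. KO-RA lungs had 104.3, 86.5 and 108 CPM, and KO-O2 lungs had 33.8, 33.4 and 34.5 CPM, the tightest group of all. In both genotypes the lowest room air lung held more than 2 times the level of the highest hyperoxic lung. The log2 fold change was -2.00 ± 0.14 in WT (adjusted p = 9e-08) and -1.51 ± 0.14 in GSDMD-KO (adjusted p = 1.39e-06). The responses differed by 0.49 between genotypes (95% interval 0.09 to 0.90), which did not pass over all genes (adjusted p = 0.661).

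Ednra, the constrictor receptor, stood at 136 to 146 CPM in WT-RA and 157 to 180 CPM in WT-O2, without overlap. KO-RA lungs had 140 to 153 CPM and KO-O2 lungs 153 to 176 CPM, which touched at the edge. The log2 fold changes of 0.24 ± 0.09 (adjusted p = 0.0391) and 0.23 ± 0.09 (adjusted p = 0.0545) passed but were small. The WT value no longer passed without WT-RA replicate 2 or without WT-O2 replicate 2, and the GSDMD-KO value without KO-RA replicate 1, KO-O2 replicate 1 or KO-O2 replicate 2 (adjusted p up to 0.155 and 0.191).

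The ratio of Ednra counts to Ednrb counts put both receptors on 1 scale within a mouse. As it was not set per length, only its change is read. It was 0.962, 1.13 and 1.49 in WT-RA lungs and 4.71, 5.76 and 6.20 in WT-O2 lungs. KO-RA lungs had 1.34, 1.69 and 1.42, and KO-O2 lungs had 5.21, 5.06 and 4.44. The lowest hyperoxic lung was thus above the highest room air lung in each genotype.

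**Figure D2:**
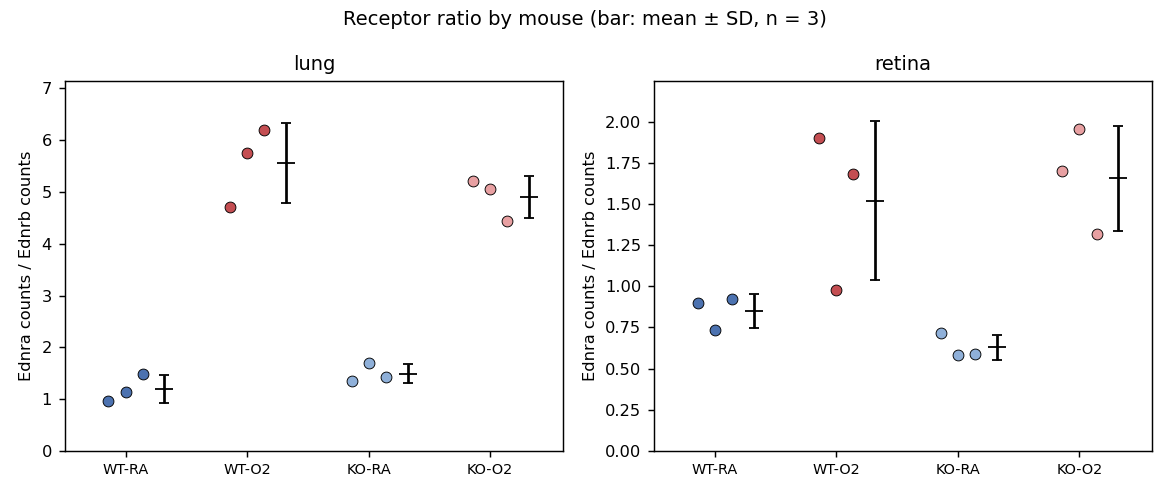
Ratio of Ednra counts to Ednrb counts in each mouse (y axes from 0; points are mice, the bar is the mean with its SD over 3 mice). In the lung the ratio lay at 1.69 or below in room air and at 4.44 or above in hyperoxia, and in the retina at 0.924 or below in room air and at 0.979 or above in hyperoxia.

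Ece1, the main converting enzyme, was the member with the highest level per kilobase of transcript in every lung group, and it stayed within 336 to 411 CPM in the 12 lungs. Its log2 fold change with hyperoxia was -0.07 (95% interval -0.25 to 0.11) in WT and -0.08 (95% interval -0.26 to 0.10) in GSDMD-KO. These intervals leave room for only a small change in transcript level. Ece1 overlapped between WT-RA and WT-O2. All KO-O2 lungs, at 355 to 400 CPM, lay below all KO-RA lungs, at 404 to 411 CPM, but the test did not pass. Ece2, a neuronal and neuroendocrine enzyme, lay at 0.172 to 0.99 CPM, or 5 to 29 counts, so its values are uncertain. Reads can also be shared with the overlapping gene Gm49333, which was given at most 0.012 counts in a lung. The Ece2 log2 fold changes of 0.74 ± 0.57 and 0.32 ± 0.53 did not pass.

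Set per kilobase of the longest annotated transcript, the order of levels in WT-RA lungs was Ece1 (80.4 ± 3.35 CPM per kb, SD, n = 3), Ednra (38.8 ± 1.39), Ednrb (29.6 ± 5.85), Edn1 (14.7 ± 0.605) and Edn3 (9.98 ± 0.791), with Ece2 and Edn2 overlapping near 0. No other neighbours in this order overlapped. In WT-O2 lungs Edn1 (26.5 ± 2.91 CPM per kb) had passed above Ednrb (7.33 ± 0.956), and the same exchange was seen in KO-O2 lungs, where Edn1 was at 23.5 ± 5.47 and Ednrb at 8.25 ± 0.141. In KO-RA lungs Ednrb and Edn1 overlapped.

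Marker lists of cell types that may carry these genes also differed in level. In bulk tissue fewer cells of a type and less RNA per cell cannot be told apart. The pan-endothelial list summed to 4319 to 5052 CPM in room air lungs and 3330 to 3905 CPM in hyperoxic lungs, and of its 10 genes 1 rose and 6 fell in WT and 1 rose and 5 fell in GSDMD-KO. Per 1000 CPM of that list, Ednrb was at 20.9 to 28.9 CPM in WT-RA and 6.84 to 8.74 CPM in WT-O2, and at 19.4 to 25.002 CPM in KO-RA and 8.55 to 10.4 CPM in KO-O2. Ednrb therefore remained apart between the groups when set against the endothelial list. The list of other aerocyte genes summed to 1548 to 1702 CPM in room air and 1527 to 1652 CPM in hyperoxia. Of its 7 genes 2 rose and 3 fell in WT, and 3 rose and 2 fell in GSDMD-KO. In WT, Apln was higher (log2 fold change 2.38 ± 0.16) and Car4 lower (-0.51 ± 0.15). In GSDMD-KO, Apln (2.33 ± 0.16), Chst1 (0.50 ± 0.09) and Sirpa (0.40 ± 0.09) were higher. Car4 did not pass there (-0.09 ± 0.15), and Fibin (-1.76 ± 0.12) and Tbx2 (-0.67 ± 0.11) fell. The responses of Fibin and Tbx2 differed between genotypes by only 0.03 and -0.004 on the log2 scale, and neither difference passed. Ednrb per 1000 CPM of the aerocyte list was 57.6 to 91.1 CPM in WT-RA and 16.3 to 21.8 CPM in WT-O2, and 55.4 to 69.7 CPM in KO-RA and 20.9 to 21.8 CPM in KO-O2, apart in both genotypes.

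General capillary genes summed to 2293 to 2853 CPM in room air and 1251 to 1699 CPM in hyperoxia. In each genotype 6 of these 7 genes fell and 1 rose. In WT Aplnr fell by 3.38 on the log2 scale and Cd93 rose by 0.67. Edn1 per 1000 CPM of the endothelial list was 5.95 to 6.98 CPM in WT-RA and 12.9 to 16.7 CPM in WT-O2, which were apart, while KO-RA at 5.85 to 11.2 CPM and KO-O2 at 11.04 to 14.9 CPM overlapped. The pericyte and smooth muscle list summed to 1309 to 1840 CPM in WT-RA and 1790 to 2033 CPM in WT-O2, and of its 11 genes 5 rose and 3 fell in WT and 4 rose and 5 fell in GSDMD-KO. Ednra per 1000 CPM of it overlapped in both genotypes, at 79.4 to 107 and 78.5 to 101 CPM in WT-RA and WT-O2, and at 99.4 to 115 and 91.1 to 120 CPM in KO-RA and KO-O2. The epithelial list of 8 genes had 2 that rose and 4 that fell in WT, and 1 and 4 in GSDMD-KO. Edn3 per 1000 CPM of it was 0.881 to 1.14 CPM in WT-RA and 0.642 to 0.796 CPM in WT-O2, which were apart, while KO-RA at 0.932 to 1.21 CPM and KO-O2 at 0.837 to 0.949 CPM overlapped. Set against the epithelial list, Edn3 was thus lower in hyperoxia in WT but not separated in GSDMD-KO. This is not a tested difference between genotypes. For unscaled Edn3 the responses differed by 0.21 (95% interval -0.10 to 0.52, adjusted p = 0.86 by edgeR), which did not pass. Which lung cells carry Edn3 was not measured.

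Other cell types differed between the groups too. Macrophage genes summed to 214 to 295 CPM in room air and 348 to 457 CPM in hyperoxia, and of 8 genes 7 rose in WT and 8 in GSDMD-KO. Erythroid genes, at 15689 to 18067 CPM in WT-RA, summed to 2913 to 4127 CPM in WT-O2, where 7 of 7 tested genes fell. In GSDMD-KO they ranged widely in both arms, over 12980 to 27267 CPM in KO-RA and 6092 to 28556 CPM in KO-O2, and 1 of 7 fell. Of the tested thymus genes 4 of 5 fell in WT and 2 of 5 in GSDMD-KO, and of the heart genes 2 of 7 fell in WT. Liver genes summed to 171 CPM in 1 KO-O2 lung and to 2.90 CPM or less in the other 11 lungs. The part of these cells in the members' values was not tested.

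Genes that act before and after the endothelins were described by lists. Of 16 genes of receptor signalling, 1 rose and 9 fell in WT lungs, with a median log2 fold change of -0.32 against -0.01 for all genes. Plcb1, the phospholipase that Gq proteins activate, fell by 1.49, Rgs4, a brake on Gq, fell by 1.03, and Prkce, a kinase downstream of it, fell by 0.97 on the log2 scale. In GSDMD-KO lungs 1 rose and 8 fell, and Rgs2, another Gq brake, fell by 1.71, as it did in WT by 1.27. Of 11 tested genes for peptidases that make or degrade endothelins, 6 rose and 3 fell in WT and 6 rose and 5 fell in GSDMD-KO. The mast cell chymases Mcpt4 and Cma1, which can cut big endothelin, were at 0.253 ± 0.139 and 0.837 ± 0.223 CPM (SD, n = 3) in WT-RA and at 11.8 ± 2.36 and 15.6 ± 2.90 CPM in WT-O2, and Phex, a relative of Ece1, rose by a log2 fold change of 1.67 ± 0.12. Mast cell number was not measured.

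Among 10 transcription factors known to act on the Edn1 promoter, 2 rose and 6 fell in WT lungs and 3 rose and 4 fell in GSDMD-KO lungs. Hif1a, the oxygen-regulated factor, rose (log2 fold change 1.12 ± 0.09 in WT and 1.11 ± 0.09 in GSDMD-KO). Its endothelial relative Epas1 fell by 1.24 and 1.03, and Gata2 fell by 1.40 and 1.68. Other vasoactive genes also moved, 3 of 9 upward and 5 of 9 downward in WT. Agtr1a, a constrictor receptor for angiotensin, fell by 2.30, Ace, the angiotensin-converting enzyme, fell by 1.44, and Npr1, the receptor of natriuretic peptides, fell by 1.03. Of 12 HIF targets 6 rose in WT, among them Pgk1 (0.86 ± 0.07) and Slc2a1 (1.14 ± 0.11), and 3 fell. In GSDMD-KO 8 of 12 passed, with Ndrg1 (-0.35 ± 0.14), Vegfa (-0.28 ± 0.10) and Bnip3 (-0.32 ± 0.11) lower and the rest higher. The list summed to 1144 to 1326 CPM in WT-RA and 1310 to 1400 CPM in WT-O2. In KO-RA it summed to 1317 to 1341 CPM and in KO-O2 to 1225 to 1375 CPM, so the sums overlapped in both genotypes.

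Genotype left the members near each other in the lung, where genotype was partly mixed with sex. No member passed between KO-O2 and WT-O2 by edgeR or DESeq2, where 1 of 6 had p under 0.05 and 0.0416% of all genes passed. No member passed between KO-RA and WT-RA by either tool, where 1 of 6, Ednrb, had p under 0.05 and 0.488% of all genes passed. The Ednrb difference in room air was -0.30 (95% interval -0.58 to -0.02). Without WT-RA replicate 3, the lowest of its group, it was -0.43 with an adjusted p of 0.0794, so the call depended on that lung. The interaction passed for no member by either tool, with 1 of 6 at p under 0.05, against 0.00595% of all genes. The members' intervals for KO-O2 against WT-O2 were -0.64 to 0.35 for Edn1, -0.10 to 0.48 for Ednrb and -0.16 to 0.22 for Ednra. With 3 mice a group, shifts within those bounds remain possible. Of the 58 tested genes of the pathway lists 0 passed between KO-O2 and WT-O2 by edgeR, with 6 at p under 0.05 and 1 passing by DESeq2.

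In the retina the change was of another kind: Edn2, close to absent in room air, had the most transcript per kilobase of all 7 members, by the group means, after hyperoxia. Edn2, Edn1 and Ednra rose in both genotypes. This was 3 of 7 members in WT, against 5.16% of all 19173 genes tested (3.11% upward, 2.05% downward), and 3 of 7 in GSDMD-KO, against 7.82% (4.38% upward, 3.44% downward). With a fold change of at least 2 it was Edn1, Edn2 and Ednra in WT, against 2.04% of all genes, and Edn2 and Ednra in GSDMD-KO, against 2.19%.

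**Figure D3:**
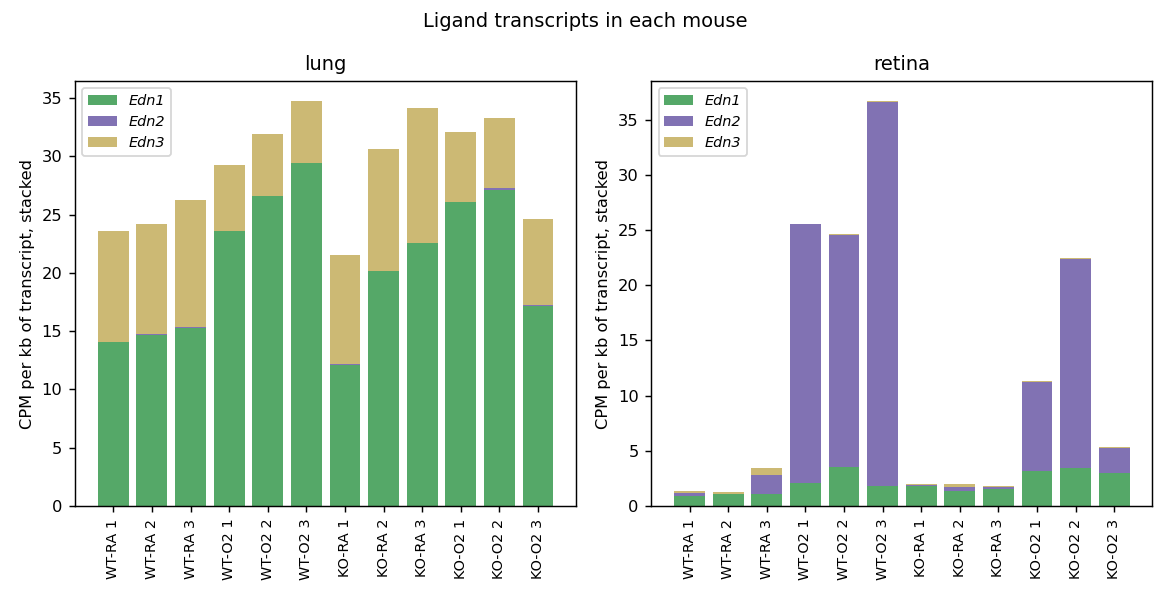
Transcript of the 3 ligand genes in each mouse, in CPM per kb of the longest annotated transcript, stacked (x axis: group and replicate; y axes from 0). Lung bars are made of Edn1 and Edn3 in all 12 mice, while in the retina Edn2 makes most of the bar in the WT-O2 retinas and in KO-O2 replicates 1 and 2.

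Edn2 was at 0.404, 0 and 2.53 CPM in the WT-RA retinas and at 34.4, 30.7 and 50.8 CPM in the WT-O2 retinas. The groups were far apart, and the highest room air value came from a library rich in lens genes. The fold change was 33.5, or 5.07 ± 1.11 on the log2 scale (adjusted p = 0.0491). KO-RA retinas had 0.163, 0.525 and 0.231 CPM, and KO-O2 retinas had 11.7, 27.8 and 3.28 CPM, again without overlap. The log2 fold change was 5.51 ± 1.24 (adjusted p = 0.0441). Without the 3 lens-rich retinas it was 6.36 in WT, where 1 room air retina was left and the test no longer passed (adjusted p = 0.124), and 5.39 in GSDMD-KO (adjusted p = 0.0988). Leaving out single retinas kept the direction of Edn2 but not always the call. In WT it was lost without the library labelled WT-RA replicate 2 (4.46, adjusted p = 0.114), without WT-RA replicate 1 and without any 1 WT-O2 retina (adjusted p up to 0.167), and without WT-RA replicate 3 the log2 fold change was 7.38 (adjusted p = 0.0225). In GSDMD-KO it was lost without any 1 KO-RA retina or without KO-O2 replicate 2 (adjusted p up to 0.148), while without the library labelled KO-O2 replicate 3 it was 5.98 (adjusted p = 0.0435).

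All 3 KO-O2 retinas lay below all 3 WT-O2 retinas for Edn2. The difference of -1.43 ± 0.90 on the log2 scale did not pass (95% interval -3.46 to 0.60, adjusted p = 0.576), and the KO-O2 retinas differed among themselves by more than 8 times. Without KO-O2 replicate 3, the lowest of the group and the library whose Gsdmd level goes against its label, the difference was -0.96 (adjusted p = 0.821). The responses to hyperoxia differed by 0.44 between genotypes with a wide interval of -3.21 to 4.09.

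Edn1 was at 1.90, 2.41 and 2.26 CPM in WT-RA and at 4.38, 7.59 and 3.94 CPM in WT-O2. KO-RA retinas had 3.79, 2.96 and 3.33 CPM, and KO-O2 retinas had 6.84, 7.31 and 6.44 CPM. Hyperoxic retinas lay above room air retinas in each genotype without overlap. The log2 fold changes were 1.03 ± 0.23 (adjusted p = 0.0416) and 0.98 ± 0.23 (adjusted p = 0.0407). Both stopped passing with sex as a term in the fit (adjusted p = 0.195 in WT and 0.131 in GSDMD-KO) and without the 3 lens-rich retinas (adjusted p = 0.142 in WT and 0.117 in GSDMD-KO), while the log2 fold changes without those retinas were 1.23 and 1.05. Edn1 also stopped passing in WT without WT-RA replicate 1, the library labelled WT-RA replicate 2 or WT-O2 replicate 2 and in a fit of the 6 WT samples alone, and in GSDMD-KO without KO-RA replicate 1, KO-RA replicate 2 or KO-O2 replicate 2 (adjusted p up to 0.151 and 0.148). Without the library labelled KO-O2 replicate 3 the GSDMD-KO value was 1.02 (adjusted p = 0.0811). Edn3 was at the edge of detection, at 0.45 to 1.97 CPM in WT-RA retinas and 0 to 0.302 CPM after hyperoxia. The log2 fold change of -2.74 ± 0.99 did not pass (adjusted p = 0.181), and the highest value came from the most lens-rich library. Without the lens-rich retinas it was -1.85 (adjusted p = 0.543).

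**Figure D4:**
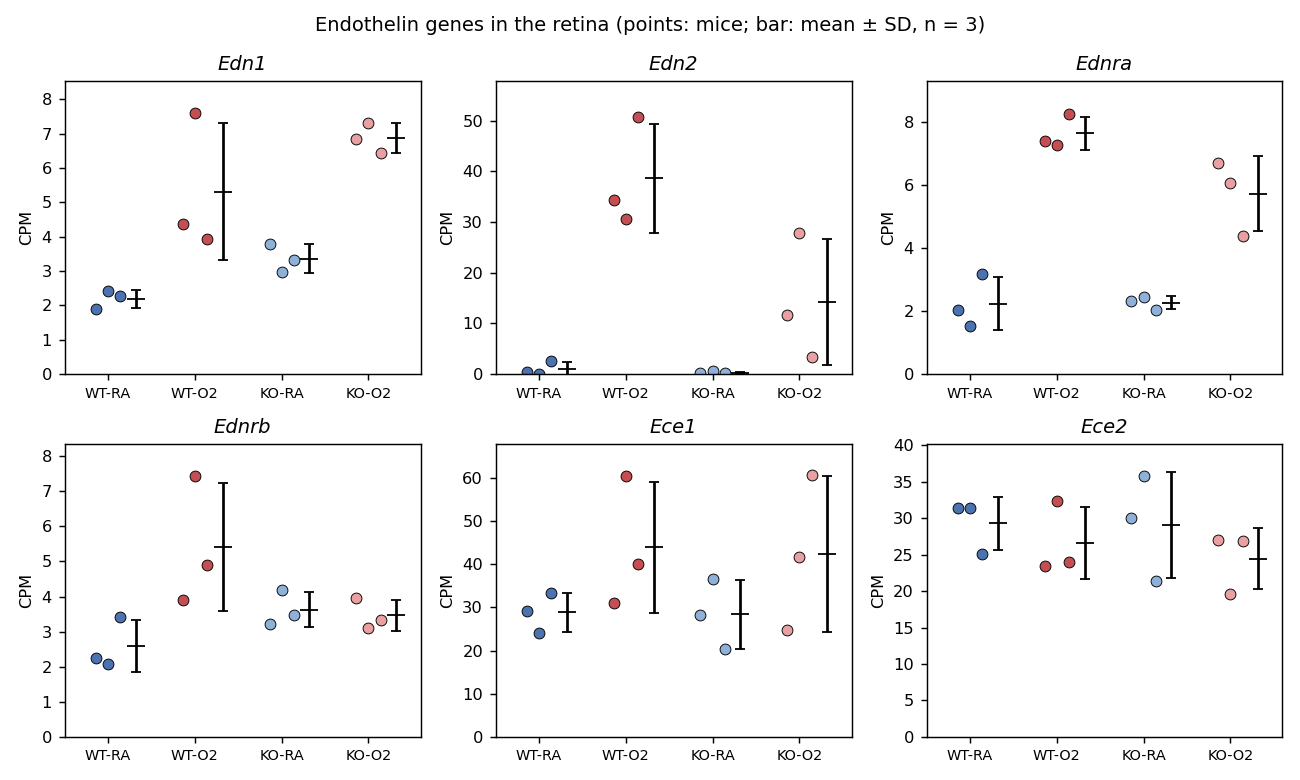
CPM of 6 members in each of the 12 retinas (y axes from 0; points are mice, the bar is the mean with its SD over 3 mice; Edn3, at 1.97 CPM or less, is left out). Edn2, Edn1 and Ednra lay higher in every hyperoxic retina than in the room air retinas of the same genotype, and Ece1 and Ece2 overlapped.

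Ednra was at 2.02, 1.52 and 3.16 CPM in WT-RA and at 7.40, 7.28 and 8.24 CPM in WT-O2. KO-RA retinas had 2.30, 2.45 and 2.04 CPM, and KO-O2 retinas had 6.70, 6.07 and 4.39 CPM. Each hyperoxic retina had more Ednra than any room air retina. The log2 fold changes were 1.52 ± 0.27 (adjusted p = 0.0166) and 1.29 ± 0.27 (adjusted p = 0.0282). In WT this was the member that still passed without the lens-rich retinas (1.69, adjusted p = 0.0522) and without any 1 retina (adjusted p up to 0.0732). In GSDMD-KO it passed without the lens-rich retinas (1.29, adjusted p = 0.0473), but not without KO-RA replicate 1 or KO-O2 replicate 2 (adjusted p up to 0.107). Without the library labelled KO-O2 replicate 3 it was 1.45 (adjusted p = 0.0368).

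Ednrb, the glial receptor, was apart between room air and hyperoxia in WT but not in GSDMD-KO, and no difference between the genotypes passed. WT-RA retinas had 2.25, 2.07 and 3.43 CPM, and WT-O2 retinas had 3.90, 7.43 and 4.89 CPM, apart from each other. KO-RA retinas had 3.22, 4.19 and 3.48 CPM, and KO-O2 retinas had 3.94, 3.11 and 3.33 CPM, overlapping. The log2 fold changes were 0.81 ± 0.28 in WT (adjusted p = 0.159) and -0.13 ± 0.27 in GSDMD-KO (adjusted p = 0.848), and neither passed. The WT value passed without WT-RA replicate 3 (1.10, adjusted p = 0.0635), and without the lens-rich retinas the values were 1.01 (adjusted p = 0.221) and -0.08 (adjusted p = 0.934). The difference between the responses was -0.93 (95% interval -1.79 to -0.08, adjusted p = 0.428). Leaving out any 1 retina, also those whose Gsdmd level goes against the label, gave -1.23 to -0.67. None of these passed (adjusted p of 0.286 or more by edgeR). The ratio of Ednra to Ednrb counts was 0.732 to 0.924 in WT-RA and 0.979 to 1.90 in WT-O2, and 0.584 to 0.716 in KO-RA and 1.32 to 1.95 in KO-O2.

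The converting enzymes gave wide spreads and no test passed. Ece1 ranged from 24.1 to 33.2 CPM in WT-RA and from 31.1 to 60.6 CPM in WT-O2, and from 20.4 to 36.5 CPM in KO-RA and 24.7 to 60.7 CPM in KO-O2. Its log2 fold changes were 0.36 (95% interval -0.35 to 1.06) and 0.54 (95% interval -0.17 to 1.24). Ece2, the neuronal enzyme, was at 19.6 to 35.8 CPM in the 12 retinas, with log2 fold changes of -0.38 ± 0.17 and -0.29 ± 0.17 and adjusted p of 0.288 and 0.383. The overlapping gene Gm49333, with which reads can be shared, was given up to 25.6 counts in a retina. Without the lens-rich retinas Ece1 had log2 fold changes of 0.34 and 0.40 (adjusted p = 0.758 and 0.651), and Ece2 had -0.48 and -0.41 (adjusted p = 0.314 and 0.313).

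The order of levels per kilobase changed accordingly. In WT-RA retinas it was Ece2 (8.51 ± 1.05 CPM per kb, SD, n = 3), Ece1 (5.99 ± 0.95), Edn1 (1.02 ± 0.122), Edn2 (0.669 ± 0.93), Ednrb (0.629 ± 0.179), Ednra (0.616 ± 0.233) and Edn3 (0.317 ± 0.272), and from Edn1 downward each gene overlapped its neighbour. In WT-O2 retinas Edn2 was first (26.4 ± 7.34 CPM per kb), above Ece1 (9.12 ± 3.14) without overlap. In KO-O2 retinas Edn2 was also first by its mean (9.76 ± 8.51), but it overlapped Ece1 and no order can be given. Levels of the lung and the retina come from tables made separately and were not tested against each other.

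**Figure D5:**
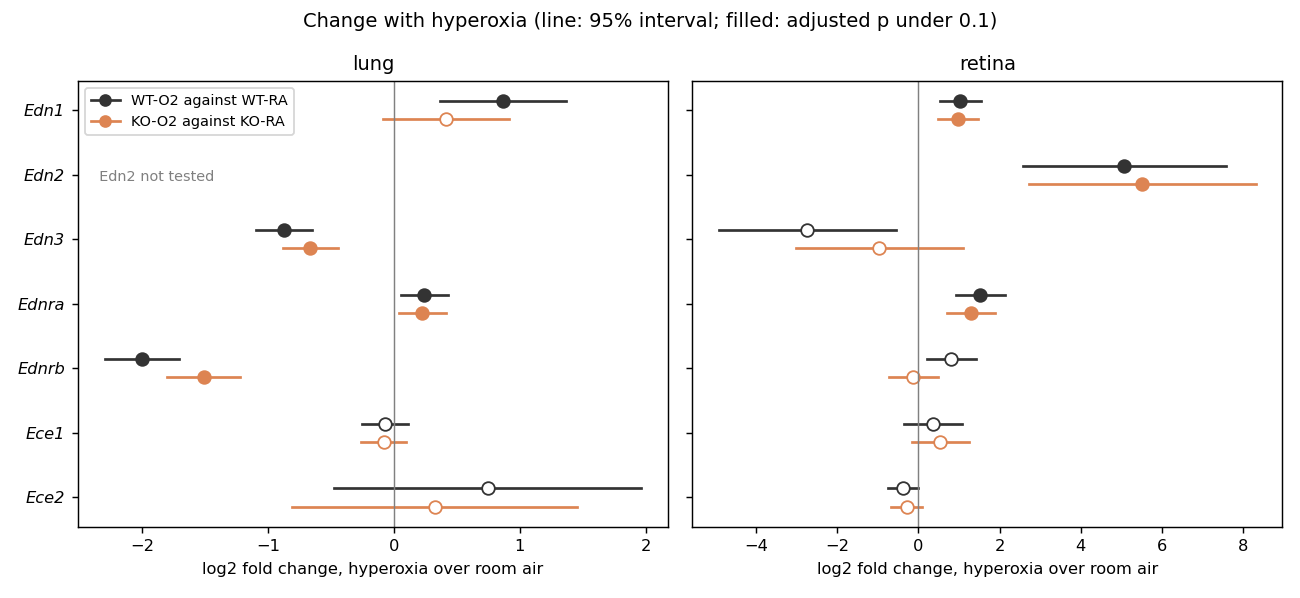
Log2 fold change of each member with hyperoxia in WT (black) and GSDMD-KO (orange), for lung and retina (x axes differ; lines are 95% intervals; filled points passed at an adjusted p under 0.1). Ednrb and Edn3 fell in the lung in both genotypes, and Edn2, Edn1 and Ednra rose in the retina in both.

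The promoter of Edn2 is shown because Edn2 had the largest rise in the retina, and that of Ednrb because it had the largest fall in the lung. The windows are the 250 bases before the RefSeq start in GRCm38.p6, at chr4:120160956-120161205 on the plus strand and chr14:103843702-103843951 on the minus strand. Capitals mark a match to the core of the HIF site (ACGTG or GCGTG, on either strand).
Edn2: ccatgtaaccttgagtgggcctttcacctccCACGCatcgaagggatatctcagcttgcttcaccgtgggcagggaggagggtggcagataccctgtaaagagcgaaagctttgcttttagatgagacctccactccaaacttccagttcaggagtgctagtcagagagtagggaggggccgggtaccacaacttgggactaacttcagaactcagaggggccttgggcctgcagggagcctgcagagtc
Ednrb: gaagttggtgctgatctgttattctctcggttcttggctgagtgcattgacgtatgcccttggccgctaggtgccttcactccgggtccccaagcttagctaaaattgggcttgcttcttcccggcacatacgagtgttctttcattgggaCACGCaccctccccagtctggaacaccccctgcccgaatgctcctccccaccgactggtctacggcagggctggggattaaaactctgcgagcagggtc
Each held 1 match, starting 219 bases before the start in Edn2 and 99 bases in Ednrb, and 38.6% of all 32851 windows of this length held at least 1. No match to the AP-1 motif TGANTCA (6.75% of windows) or the STAT motif TTCNNNGAA (7.02%) was found in either window. Of the other members' windows those of Edn1, Edn3 and Ednra held none of the 3 motifs. Ece1 has 4 RefSeq starts, and 3 of its windows held a HIF core, with 1, 1 and 4 matches, while the window of Ece2 held 1. The Ece1 windows with 1 match overlap and hold the same site. In the window with 4, the matches at 90 and 89 bases are 1 palindrome read on both strands. Neither Ece1 nor Ece2 passed with hyperoxia in either tissue. A match is a description of letters and not a binding site.

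Among the lists tested in the retina, the photoreceptor injury and Lif list holds genes of the signal that Edn2 is known to accompany. Of its 14 genes 6 rose and 0 fell in WT, with a median log2 fold change of 2.04 against 0.00 for all genes, and 7 rose and 0 fell in GSDMD-KO, with a median of 1.38. Fgf2, a survival factor for photoreceptors, rose by 2.43 ± 0.32 and 1.94 ± 0.31, and Cebpd, a STAT3 target, by 2.23 ± 0.34 and 1.35 ± 0.34. Bcl3, a cofactor of NF-kB, rose by 3.42 ± 0.61 and 2.42 ± 0.60. Adm, the dilator peptide adrenomedullin, rose from 1.70 ± 0.272 CPM in WT-RA to 26.4 ± 5.26 CPM in WT-O2 (SD, n = 3) and was the only 1 of 10 vasoactive genes to pass in WT. In GSDMD-KO 2 of 10 passed, Adm (3.09 ± 0.25) and Ace (0.78 ± 0.20). Of 12 HIF targets 3 rose in each genotype, Vegfa, Egln3 and Bnip3, with log2 fold changes of 1.25, 1.70 and 0.68 in WT and 1.00, 1.62 and 0.58 in GSDMD-KO. Of 16 genes of receptor signalling 0 passed in WT by edgeR, with 3 at p under 0.05 and 1 passing by DESeq2, and 2 rose in GSDMD-KO, Gna13 (0.41 ± 0.11) and Itpr3 (0.89 ± 0.26). Of 10 tested peptidase genes 1 fell in WT, Pcsk6 (-0.57 ± 0.16), and 1 rose in GSDMD-KO, Ctsa (0.51 ± 0.11). Of the 10 transcription factors 0 passed in WT by edgeR, with 2 at p under 0.05 and 1 passing by DESeq2, and 1, Fos, rose in GSDMD-KO (1.35 ± 0.29).

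Vessel and glial markers were also at other levels in the hyperoxic retinas. The pan-endothelial list summed to 132 to 184 CPM in room air and 244 to 332 CPM in hyperoxia, with 8 of 10 genes higher in WT and 7 of 10 in GSDMD-KO. Edn1 per 1000 CPM of that list was 12.1 to 18.3 CPM in WT-RA and 13.2 to 24.3 CPM in WT-O2, which overlapped, and 16.1 to 22.6 and 26.2 to 27.0 CPM in KO-RA and KO-O2, which did not. The pericyte and smooth muscle list summed to 94.7 to 129 CPM in room air and 164 to 335 CPM in hyperoxia. Ednra per 1000 CPM of it was 15.5 to 25.2 CPM in WT-RA and 21.7 to 34.4 CPM in WT-O2, which overlapped, and 16.2 to 19.1 and 26.6 to 28.6 CPM in KO-RA and KO-O2, which did not. Photoreceptor genes summed to 57910 to 70080 CPM in room air and 54096 to 71446 CPM in hyperoxia, while Edn2 per 1000 CPM of them went from 0.0437 CPM or less in WT-RA to 0.462 CPM or more in WT-O2. In GSDMD-KO this value was 0.00238 to 0.00834 CPM in KO-RA and 0.0537 to 0.448 CPM in KO-O2, apart but widely spread. Astrocyte genes, Gfap among them, summed to 28.1 to 48.2 CPM in room air and 60.9 to 161 CPM in hyperoxia, and microglia genes to 35.5 to 49.3 CPM and 84.2 to 128 CPM. Ednrb per 1000 CPM of the astrocyte list was lower in hyperoxia in both genotypes without overlap, at 60.3 to 73.7 CPM in WT-RA, 34.2 to 46.2 CPM in WT-O2, 100.2 to 112 CPM in KO-RA and 28.6 to 54.7 CPM in KO-O2. Per 1000 CPM of the Mueller glia list it was 0.557 to 1.04 CPM in WT-RA and 1.13 to 2.29 CPM in WT-O2, which were apart, and 0.878 to 1.14 CPM in KO-RA and 0.817 to 0.999 CPM in KO-O2, which overlapped. The direction of retinal Ednrb in WT, relative to glial markers, thus depended on the list it was set against. The astrocyte list itself rose in hyperoxia and holds Gfap, which is also in the photoreceptor injury and Lif list. Unscaled, Ednrb CPM was higher in the WT-O2 than in the WT-RA retinas. Genes of the retinal pigment epithelium summed to 214 to 593 CPM in WT-RA and 117 to 295 CPM in WT-O2, and to 398 to 2734 CPM in KO-RA and 122 to 309 CPM in KO-O2. Their part in the members' values was not tested.

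Genotype did not move a member past the test in the retina by edgeR or DESeq2. Between KO-O2 and WT-O2 1 of 7 members, Ednrb, had p under 0.05 (log2 difference -0.62, 95% interval -1.22 to -0.01, adjusted p = 0.383), and 1.27% of all genes passed. Between KO-RA and WT-RA 0 of 7 had p under 0.05 and 0.00522% of all genes passed, and the interaction gave 1 of 7, with 0.00522% of all genes passing. Of the 72 tested genes of the pathway lists 0 passed between KO-O2 and WT-O2 by edgeR, with 21 at p under 0.05 and 6 passing by DESeq2. The KO-RA retinas lay above the WT-RA retinas for Edn1 in all mice, by 0.45 on the log2 scale (95% interval -0.05 to 0.96, adjusted p = 0.441).

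The genes whose log2 CPM followed each member most closely over the 12 samples of a tissue are named as a description. They were measured in the same libraries as the members and share the differences between groups. In the retina Edn2 was followed by Ero1l, an enzyme of protein folding, and Gfap, the intermediate filament of reactive glia (Pearson r = 0.986 for each), and by Ifitm3 (0.979). Ednra was followed by Ero1l (0.981), Nras (0.977) and Sparc (0.975), and Edn1 by Rasal2 (0.957), Samd7 (0.946) and Txndc16 (0.941). In the lung Ednrb was followed by Arl15 (0.995), Npnt (0.995) and St3gal6 (0.993), and Edn3 by 2610044O15Rik8 (0.982), Pgm5 (0.979) and Sav1 (0.976). Edn1 was followed by Vgf (0.941), Mecr (0.932) and Spsb1 (0.929), and Ednra by Tpm3 (0.954), Lins1 (0.95) and Ganab (0.949).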

How the data were processed

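RNA from 12 lungs and 12 retinas was sequenced by BGI as paired-end reads. The authors quantified transcripts with kallisto, collapsed them to genes through tximport, and deposited the resulting expected counts (estimated counts) for each tissue without scaling to library size. Versions were not given in the sources used here. The labels name mm10 and the methods another build, and coordinates here are those of GENCODE M21 on GRCm38. In the lung 55.8% of nonzero values, and in the retina 2.2%, lay within 0.01 of a whole number, so the retina values may have been scaled, and tests were made within a tissue only.

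Counts were rounded, and each tissue had 1 fit over its 12 samples, with 1 coefficient per group, in R 4.3.3 with edgeR 4.0.16 (TMM, filterByExpr, robust glmQLFit, quasi-likelihood F-test, Benjamini-Hochberg adjustment over 16819 lung genes and 19173 retina genes). The SE of a log2 fold change is its size divided by the root of F. Levels are CPM of the library total. Library totals of 24863300 to 29604300 give 1 CPM few counts, so values below 1 CPM carry a large counting error. The scripts were tested on simulated data. The interaction is the response of GSDMD-KO minus that of WT, tested without a fold threshold.

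The members and gene lists were chosen with earlier results of these data known. The genes named are the 7 members, of each pathway list up to 3 genes with the smallest p among those passing in a hyperoxia comparison, and the 3 genes with the highest Pearson r of log2 CPM (prior count 2) for each member that passed. Marker genes and any other gene were named after their values were seen. Alternatives were RLE and upper-quartile normalization, no filter, DESeq2 1.42.0, only the 6 samples compared, sex as a term (Y-linked genes above 20 CPM) and leaving out each sample. Leaving out the 3 retinas with lens genes above 1000 CPM was chosen after seeing the data.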

Additional observations from a re-analysis of the deposited data

Results flagged for a closer look

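Ednrb differed in sign between the lung and the retina of WT mice after hyperoxia. Lung Ednrb had a log2 fold change of -2.00, retinal Ednrb one of 0.81, and in each tissue the 3 WT-O2 mice did not overlap the 3 WT-RA mice. This lack of overlap was part of the rule that flagged Ednrb, and its share over all genes was not counted. The lung value passed, and the retina value did not (adjusted p = 0.159). Per 1000 CPM of the astrocyte list, retinal Ednrb was lower after hyperoxia, at a median of 71.04 CPM in WT-RA and 34.5 CPM in WT-O2. That list, which holds Gfap, itself summed to 28.1 to 48.2 CPM in WT-RA and 113 to 161 CPM in WT-O2. The difference between the tissues was not tested, since the tables were made separately and the oxygen level, ages and recovery in room air differed. Groups of 3 were not tested for single outlying samples, since the rule used needs at least 4.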

How the results depend on the processing

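Over 65 member values and 1187 alternative values, 1154 stayed on the same side of the test, 28 no longer passed, 5 passed newly and 0 of those that passed in either fit changed direction. A further look at 40 of the 1154 showed a change of sign where neither value passed. In the lung the number of members passing held under RLE, upper-quartile normalization, no filter, DESeq2, the 6 samples compared and sex as a term. Leaving out 1 lung at a time gave 3 to 4 passing members in WT, 2 to 4 in GSDMD-KO and 0 to 1 between KO-RA and WT-RA. In the retina leaving out 1 sample at a time gave 1 to 4 in WT and 0 to 3 in GSDMD-KO, DESeq2 gave 4 in WT with Edn3 added, and leaving out the lens-rich retinas gave 1 in WT, where the lone room air retina was assumed to vary like the other groups. Without the lens-rich retinas 21544 genes were tested and 871 of them passed in WT. Over all genes DESeq2 passed more than edgeR in the retina (1886 against 990 in WT, 2516 against 1500 in GSDMD-KO, 965 against 244 between KO-O2 and WT-O2, 731 against 1 between KO-RA and WT-RA, and 547 against 1 for the interaction) and, in the lung, between genotypes (88 against 7, 423 against 82 and 110 against 1 in the same order). The cause was not tested. No paired analysis was possible because the labels give no replicate numbers shared between groups. Depth limits Edn2 and Ece2 in the lung and Edn3 in the retina, each near or below 1 CPM in most samples.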
